A study of Drosophila melanogaster with 33 samples.

Results

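The genes described here are 65 Drosophila melanogaster genes that carry only an annotation number as their name (CG followed by digits) and whose newly made RNA first reached a set level at the syncytial blastoderm. They are 65 of 16407 genes in the poly(A) table, of which 7033 have a CG symbol. A gene was a member if, in ppm (parts per 1000000 of each library's summed length-normalised values), it lay below 1 in the total RNA of nuclear cycles (NC) 7-9, had a mean below 5 in the labelled RNA of both NC 9-10 preparations, and had a mean of at least 10 in the labelled RNA of both syncytial blastoderm preparations. These values chose the members, so levels in those libraries are given as a description and were not tested.

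The embryo of the fly starts on RNA that the mother put into the egg. Its nuclei divide quickly in a shared cytoplasm, the syncytium, while a few short genes begin to be transcribed, and transcription then spreads to many genes as the nuclear cycles lengthen and membranes enclose the nuclei at the cellular blastoderm. Genes known from mutant screens, such as the pair-rule and cellularisation genes, are the familiar part of this activation, whereas CG genes are predicted or sequenced genes that had received no name when the tables were made.

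The study set out to find which transcripts the zygote makes at the start of this activation. Embryos of the wild-type strain Oregon R received an injection of 5-ethynyl uridine (5-EU), a nucleoside that is built into RNA as it is made, and were staged by their morphology as NC 7-9, NC 9-10, syncytial blastoderm or cellular blastoderm. RNA that held the nucleoside was tagged with biotin and caught on streptavidin beads. Each preparation gave 3 libraries: input (total RNA), eluate (RNA held by the beads, enriched in new RNA) and flow-through (RNA that did not bind). In the poly(A) set there was 1 preparation at NC 7-9 and 2 at NC 9-10, all injected with 250 mM 5-EU, and at the syncytial and at the cellular blastoderm 1 preparation with 250 mM and 1 with 50 mM, which gives 21 libraries. The rRNA-depleted set had 1 preparation per stage, all at 250 mM, which gives 12 libraries. All groups were injected, so there is no set of embryos without 5-EU, and the labels do not say how many embryos each preparation pooled. The 250 and 50 mM preparations are treated here as replicates of a stage, and where nothing says that preparations came from separate collections, the p-values measure only the spread between these samples.

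The read depth behind the libraries, estimated from the step between the lowest values of a table, was 4.27 to 28.2 Mreads (1 Mread is 1000000 reads) in poly(A) eluates, 6.51 to 21.5 Mreads in inputs and 1.95 to 37.2 Mreads in flow-throughs. The shallowest poly(A) library was the 250 mM flow-through of the syncytial blastoderm, where 1 read on a gene of 1 kb is worth 1.24 ppm, so many members could not have been detected there at the levels seen in the other flow-through. These estimates are rough: 74.6 to 85.0% of the low values of a library came out as whole reads within 0.05 of a read. Intervals are not given because the tables hold no read counts. Below, "level" is the ppm value after a further scaling of libraries by the median of ratios, and differences are on the log2(level + 1) scale, which understates the change of low genes. A gene was called when limma's moderated test, fitted on 8744 genes of the poly(A) table or 8131 genes of the rRNA-depleted table, gave a Benjamini-Hochberg adjusted p below 0.05. All 65 members were among the 8744, which the eluate values of the rule ensure by themselves.

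The label held for most members and was a matter of degree for some. In the NC 7-9 eluate 57 of the 65 members were listed at 0 and none reached 1. In the NC 9-10 eluates 32 and 43 members were listed at 0, and 16 and 4 were at 1 or more, with a highest level of 7.20 for CG42762 in the first preparation and 5.38 for CG18336 in the second. In the rRNA-depleted NC 9-10 eluate, which the rule did not use, 28 members were at 1 or more and 5 at 10 or more. Those 5 were CG42762 at 107, CG11018 at 31.9, CG43725 at 26.4, CG30161 at 21.1 and CG13868 at 11.0. For them RNA was therefore present in the eluate before the syncytial blastoderm in that set, which has 1 library at this stage. In the poly(A) eluates of NC 9-10 they were, in the same order, at 7.20, 6.22, 2.59, 3.22 and 4.85 in the first preparation. In the second preparation they were at 0, 0.0577, 0, 0 and 0.18, so the early level did not repeat there. Whether this early RNA was labelled was not tested.

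The threshold cut through a continuous range. Just inside it lay CG14107 with a mean of 10.2 ppm (12.7 in the 250 mM and 7.81 in the 50 mM eluate), CG9279 with 10.8 (14.5 and 7.01) and CG10151 with 10.8 (14.9 and 6.66). Just outside lay CG13217 with 9.85 (17.7 and 1.99), CG32037 with 9.60 (11.6 and 7.60) and CG5597 with 9.52 (0.245 and 18.8). Of the members, 17 had 1 of the 2 syncytial eluates below 10 ppm. A minimum of 20 ppm would leave 39 members.

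All 65 members matched the BDGP6.54 annotation (dm6 coordinates) and all are protein coding. Newer symbols exist for 5 of them. CG10924 is Pepck2, a phosphoenolpyruvate carboxykinase, the enzyme that starts gluconeogenesis from oxaloacetate. CG9505 is Nepl4, a neprilysin-like metallopeptidase, CG42492 is OtopLa, an otopetrin-like proton channel, CG42339 is vex and CG9279 is Dred. For the others the symbol gives no role, so they are described by place, length and level.

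The members were intermediate in gene structure between CG genes that started earlier and later. Their exonic length had a median of 1179 bp and ran from 325 bp (CG42716) to 7548 bp (CG42492). The 25 CG genes already at 5 or more in the NC 9-10 eluates, with the same limit on NC 7-9 total RNA, had a median of 641 bp. The 114 CG genes that first reached 10 in the cellular blastoderm eluates had 1653 bp, the 3364 protein-coding CG genes among those tested had 1701 bp and all 8162 protein-coding genes among those tested had 2066 bp. A single exon was annotated for 14 members (21.5%), beside 84.0% of the earlier genes, 14.9% of the later genes and 10.1% of the 8162 protein-coding genes. An exonic length under 1000 bp was found for 31 members (47.7%), beside 76.0% of the earlier, 24.6% of the later and 15.4% of the 8162. The X chromosome held 7 members (10.8%, beside 17.1% of the 8162), 2L held 11, 2R 18 (27.7%, beside 20.6%), 3L 13 and 3R 16. These shares are descriptions and were not tested, since the genes of each set were chosen by their levels.

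**Figure D1:**
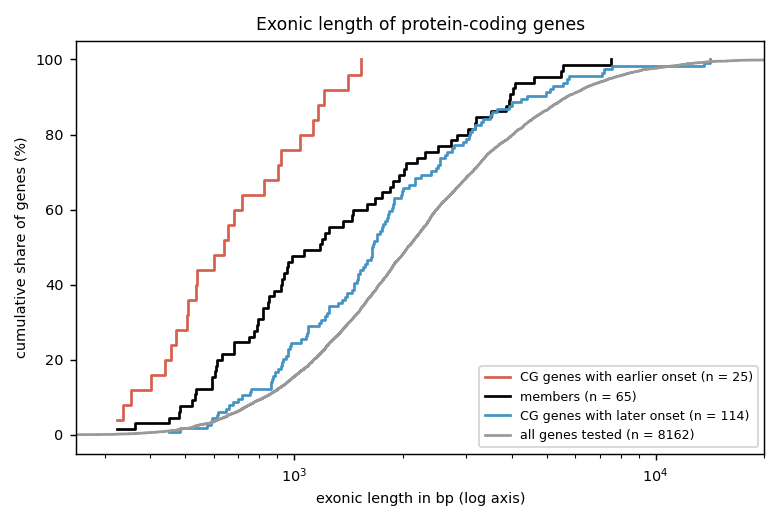
Cumulative share of genes (%, vertical axis) against exonic length in bp (horizontal log axis) for the 65 members, the CG genes of earlier onset (n = 25) and later onset (n = 114), and the protein-coding genes among all tested (n = 8162). The members' line lies between those of the earlier and the later genes over most of its course, with medians of 641, 1179 and 1653 bp from left to right.

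The members took up a rising share of the labelled RNA, where the rise from the NC 9-10 to the syncytial eluates follows from the rule. Summed, they made 0.000358% of the NC 7-9 eluate, 0.00608% and 0.00203% of the NC 9-10 eluates, 0.404% (250 mM) and 0.519% (50 mM) of the syncytial eluates, and 1.13% and 1.20% of the cellular eluates. The same sum made 0.0254% and 0.0386% of the syncytial inputs and 0.256% and 0.208% of the cellular inputs. The median member had a level of 34.1 and 32.7 in the syncytial eluates and 64.7 and 69.7 in the cellular eluates. In the inputs it was listed at 0 at NC 9-10, was at 1.54 and 1.97 at the syncytial and at 12.4 and 12.3 at the cellular blastoderm. Flow-throughs were lower, with medians of 0 and 0.903 at the syncytial and 2.42 and 6.55 at the cellular blastoderm.

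**Figure D2:**
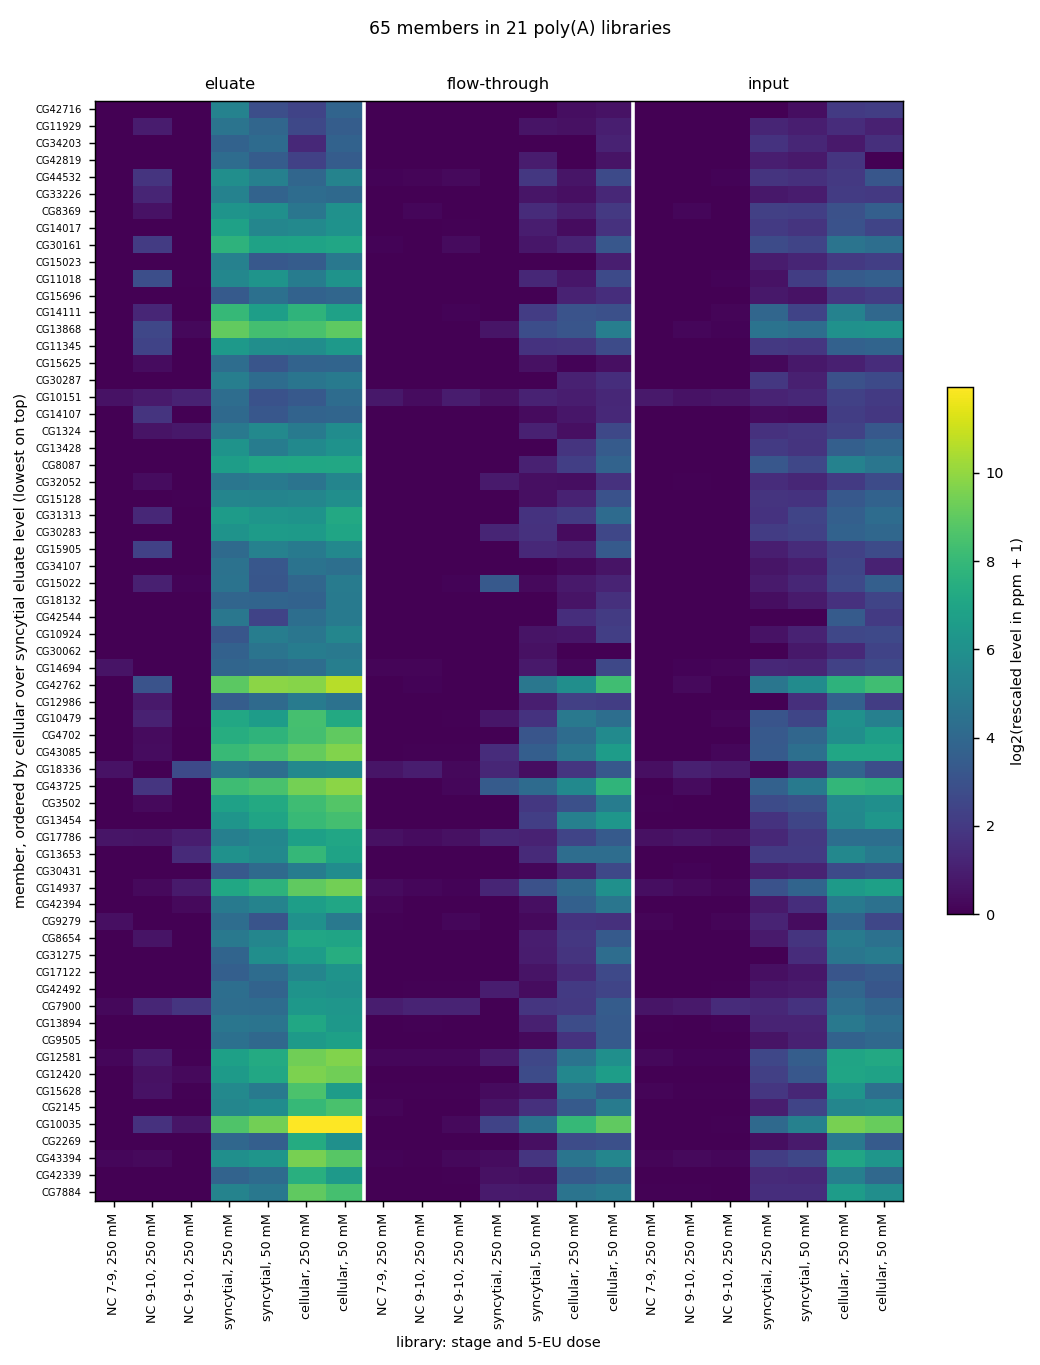
Levels of the 65 members (rows) in the 21 poly(A) libraries (columns, by fraction, stage and 5-EU dose), as log2(level in ppm + 1) by colour. Rows are ordered by the ratio of the cellular to the syncytial eluate, from 0.399 (CG42716, top) to 13.1 (CG7884, bottom). Eluates of NC 9-10 are near 0 by the rule, that of NC 7-9 is also near 0, and inputs and flow-throughs are highest at the cellular blastoderm.

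The 10 members with the highest syncytial eluate levels span a wide range. CG42762, on 2L from 8143401 to 8144047 (minus strand, 593 bp exonic), was at 492 and 923 in the syncytial eluates, 25.1 and 52.3 in the syncytial inputs, 882 and 1626 in the cellular eluates and 212 and 309.9 in the cellular inputs. The 50 mM library was the higher of each of these pairs. CG10035, on 3R from 12380869 to 12382691 (minus strand, 1754 bp), was at 398 and 667 in the syncytial eluates and at 3834 and 3914 in the cellular eluates, the highest level of any member in any poly(A) library. Its inputs were at 16.1 and 36.7, then 726 and 574.5.

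CG13868, on 2R from 20308777 to 20316917 (minus strand, 6 exons), had no such difference between the stages: its eluates were at 533 and 335 at the syncytial and 359 and 495 at the cellular blastoderm, so the stages overlapped. Its input went from 22.0 and 18.1 to 63.9 and 68.8. CG43725, a single-exon gene of 450 bp on 2L (11075513 to 11075962, plus strand), was at 299.8 and 364 and then at 696.5 and 939 in the eluates. CG43085 (3L, 17645486 to 17646737) was at 260.0 and 355, then 559 and 807. For both, each cellular eluate lay above each syncytial one.

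Of the remaining 5, CG4702 was at 170.4 and 213 in the syncytial and 333 and 514 in the cellular eluates, CG14937 at 138 and 212, then 517 and 675, and CG3502 at 112 and 154, then 297 and 426. The other two were not higher at the later stage. CG14111 was at 251.5 (250 mM) and 101 (50 mM), then 216 and 111.5, and followed the dose more than the stage. CG30161, a single-exon gene on 2R (24663532 to 24664377), was at 207 and 114.9, then 119.8 and 131.

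From the syncytial to the cellular blastoderm the eluate level went both ways among the members. The syncytial eluates chose the members, so a member that passed on a high value there is drawn to a lower ratio. The ratios here and below are therefore a description and were not tested. The mean of the cellular eluates was above that of the syncytial eluates for 49 of 65 members, with a median ratio of 1.69. It was at least 4 times the syncytial mean for 13 members, 2 to 4 times for 16, between 0.5 and 2 for 33 and below 0.5 for 3. CG7884 on the X (19220622 to 19235910, plus strand, 3960 bp) had the highest ratio: its eluates were at 39.2 and 26.8, then at 522 and 341, a ratio of 13.1. CG42339 (vex), a gene that spans 72180 bp of the X, had 9.02, CG43394 8.78, CG2269 8.66 and CG10035 7.28. At the other end were CG42716 (38.1 and 6.30, then 4.26 and 13.49), CG11929 (22.9 and 14.6, then 4.99 and 10.4) and CG34203 (12.3 and 17.3, then 1.62 and 12.3). For CG42716 and CG34203 the levels of the stages overlapped, and for CG11929 they did not. In the rRNA-depleted eluates, however, CG11929 went the other way, from 9.56 to 16.4. CG11929 also overlaps Bsg25A, which had a mean syncytial eluate level of 6940.0, so its values are uncertain.

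The members in between fill the same range. Of those with a ratio of at least 4, CG12420 was at 89.8 and 143 in the syncytial eluates and 761 and 641 in the cellular ones, CG12581 at 108 and 154, then 656 and 825, and CG15628 at 47.8 and 28.8, then 374 and 96.6. CG2145, CG9505, CG13894, CG7900 and CG42492 had ratios of 4.10 to 6.26. In each of these 8 genes both cellular eluates lay above both syncytial ones. Of the members with ratios of 2 to 4, CG13454, a single-exon gene of 524 bp on 3L, was at 73.1 and 124.5, then 264 and 333.5, and CG10479 was at 142 and 95.4, then 346 and 152. Among those with a ratio near 1 were CG11345 (0.997), CG30287 (1.03) and CG10151 (1.04), each with overlapping levels at the 2 stages. CG8369 was at 71.2 and 59.7, then 24.9 and 65.7, and CG44532 at 59.1 and 35.2, then 14.3 and 39.0, so in both the 250 mM library alone was lower at the later stage.

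**Figure D3:**
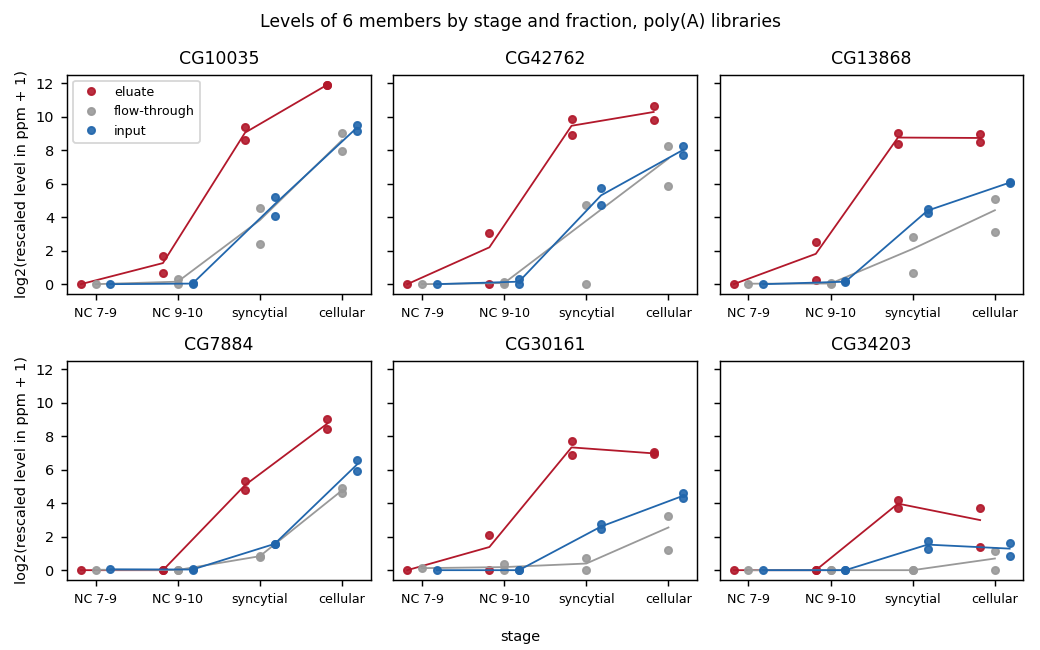
Levels as log2(level in ppm + 1) (vertical axis) of 6 members by stage (horizontal axis) in the poly(A) eluates, flow-throughs and inputs, where each point is a library and lines join the means of the points. The ratio of the cellular to the syncytial eluate is 7.28 for CG10035, 13.1 for CG7884, 0.983 for CG13868, 0.779 for CG30161 and 0.472 for CG34203, and the syncytial inputs lie below the syncytial eluates in all 6 panels.

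The dose did not order the syncytial eluates: 31 of 65 members were higher at 50 mM than at 250 mM. At the cellular blastoderm 47 of 65 were. With 1 preparation per dose and stage, dose and preparation cannot be told apart. Single members differed widely between the doses. CG42716 was 0.165 times as high at 50 mM as at 250 mM in the syncytial eluates and 3.17 times as high in the cellular ones, and CG31275 was 4.40 times as high at 50 mM in the syncytial eluates (13.2 and 58.0).

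The ratio of eluate to input means had a median of 19.1 at the syncytial blastoderm (7.83 to 130, 64 members with input above 0), and of 5.49 at the cellular blastoderm (2.72 to 10.0). The first of these uses the eluates that chose the members and is a description only.

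At the cellular blastoderm neither fraction was used by the rule, and the eluate could be tested against the input. All 65 members lay above the input and limma called 59 of them higher, beside 39.0% of all 8744 genes. Their median log2 difference was 2.32, and 0.57 over all genes. This direction rests on scaling the libraries: on the values as deposited no member was called and the median was -0.24, beside -1.87 over all genes. The difference was not particular to the members. With the main scaling limma called 8 of the 25 CG genes of earlier onset higher (median 2.27) and 112 of the 114 of later onset (2.24). The later genes were chosen by their cellular eluates, so their count is a description. The differences of the members ran from 1.05 for CG42716 to 3.13 for CG14017.

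CG14017, a gene of 1179 bp on 2L (5553897 to 5555137, plus strand), was at 48.2 and 67.0 in the eluate and 7.04 and 4.45 in the input (log2 difference 3.13 ± 0.50 (SE), limma adjusted p = 0.000409). CG14017 overlaps GluRIIA by 66 bp on the same strand. CG30062 followed at 31.6 and 26.9 against 1.61 and 4.30 (3.02 ± 0.39, limma adjusted p = 0.000137). The next were CG30283 (2.88), a serine protease by its RefSeq synonym, Nepl4 (CG9505, 2.76) and CG31313 (2.73). On values as deposited these 5 had differences of 0.13 to 0.77 and none was called. Not called were CG11018, CG15022, CG34203, CG42716, CG42762 and CG44532, with log2 differences of 1.05 to 2.22. CG42762 had eluates of 882 and 1626 against inputs of 212 and 309.9 (2.22 ± 1.33 (SE), limma adjusted p = 0.174). The SE rests on the spread within all groups of the fit, not on these 4 libraries alone. With the preparation as a block, 3 of these were called: CG34203 (limma adjusted p = 0.00762), CG44532 (0.0124) and CG11018 (0.0149).

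In the flow-through of the cellular blastoderm every one of the 65 members measured below the input, with a median log2 difference of -1.31 beside -0.03 over all genes. Limma called no member and 0.0229% of all genes lower, and an unadjusted p below 0.05 was found for 38 members and 967 genes. A fit blocked on the preparation called 8 members lower, beside 2.36% of all genes (0.0572% higher): CG30062, CG30283, CG30287, CG32052, CG8654, CG7884, CG12581 and CG8369. CG30283 was at 0.29 and 4.84 in the flow-through against 12.6 and 15.0 in the input, and CG30062 was listed at 0 in both flow-throughs against 1.61 and 4.30. The median rested on the 250 mM flow-through, since it was -0.71 without it and -1.85 without the 50 mM library, where limma called 10 members and 117 of 8744 genes lower.

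Total RNA of the members was tested between stages. The inputs of the syncytial blastoderm were compared with those of NC 9-10, which the rule did not use, although they come from the preparations whose eluates chose the members. Limma called 23 members higher and none lower, beside 1.77% of all genes called higher and 5.79% lower. The median difference was 1.36 (0.03 over all genes) and 63 of 65 lay above 0. On values as deposited the median was 4.90 (-0.29 over all genes), with 50 members and 343 genes called higher, and with a pseudocount of 0.25 it was 2.78 (0.04), with 35 members and 203 genes. The number of calls depended on every library: it fell to 6 or 1 without the first or the second NC 9-10 input and to 5 without either syncytial input.

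The largest differences were those of the most abundant members. CG42762 was at 0.219 and 0 in the NC 9-10 inputs and 25.1 and 52.3 in the syncytial ones (5.08 ± 1.33 (SE), limma adjusted p = 0.0372). CG10035 was at 0 and 0.0497, then 16.1 and 36.7 (4.63 ± 0.64, limma adjusted p = 0.00184). CG13868 had a difference of 4.24, CG43725 of 4.12 and CG43085 of 3.78, and all were called. CG18336, at 1.04 and 0.812 and then 0.165 and 1.48, and CG42544, listed at 0 in all 4 inputs, were the members not above 0.

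In the NC 9-10 inputs 48 and 43 members were listed at 0, and 1 in each was at 1 or more. A fall from there to either later stage could hardly have been called, so the direction is a description. By the cellular blastoderm 63 of 65 members were called higher in the input than at NC 9-10, beside 27.6% of all genes, with a median of 3.52 (0.31 over all genes). As deposited the median was 7.01 (-0.73 over all genes) and with a pseudocount of 0.25 it was 5.30 (0.43). The highest were CG10035 (9.30), at 726 and 574.5, CG42762 (7.86), CG43725 (7.64), at 240.2 and 211 from 0.29 and 0, CG12581 (6.96), at 123 and 144.5 from 0.0726 and 0.0808, and CG43085 (6.95), at 131 in both libraries from 0 and 0.146. CG42819 and CG34203 were listed at 0 in both NC 9-10 inputs and were not called: the former was at 2.56 and 0 and the latter at 0.787 and 2.10 in the cellular inputs (limma adjusted p = 0.192 and 0.11). The smallest called differences were those of CG15625 (1.27), CG11929 (1.28) and CG10151 (1.55). Each of these 3 lost its call when some 1 input library was left out.

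Between the syncytial and the cellular blastoderm, inputs of 42 members rose and none fell by limma's test, beside 16.8% of all genes called higher and 13.9% lower. In the syncytial inputs the median member was at 1.54 and 1.97, and 5 and 8 members were at 10 or more. A fall could therefore hardly have been called for most members, so its absence is a description. The median difference was 2.08 beside 0.32 over all genes. CG7884, whose eluate ratio was the highest, also led here: its input was at 1.98 and 1.97 and then at 96.5 and 59.5 (4.69 ± 0.32 (SE), limma adjusted p = 6.68e-06). CG10035 had 4.67, CG43394 4.31, CG12420 4.18 and CG31275 4.06. At the low end CG14017 had 0.82 and CG15625 0.74, and CG11929 had 0.17, CG42819 0.01 and CG34203 -0.28. None of these 5 was called. The sign of the last 3 depended on the setting: CG11929 was at -0.10 and CG42819 at -0.16 with scaling to 1000000 alone, and CG34203 at 0.12 without the 250 mM cellular input.

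**Figure D4:**
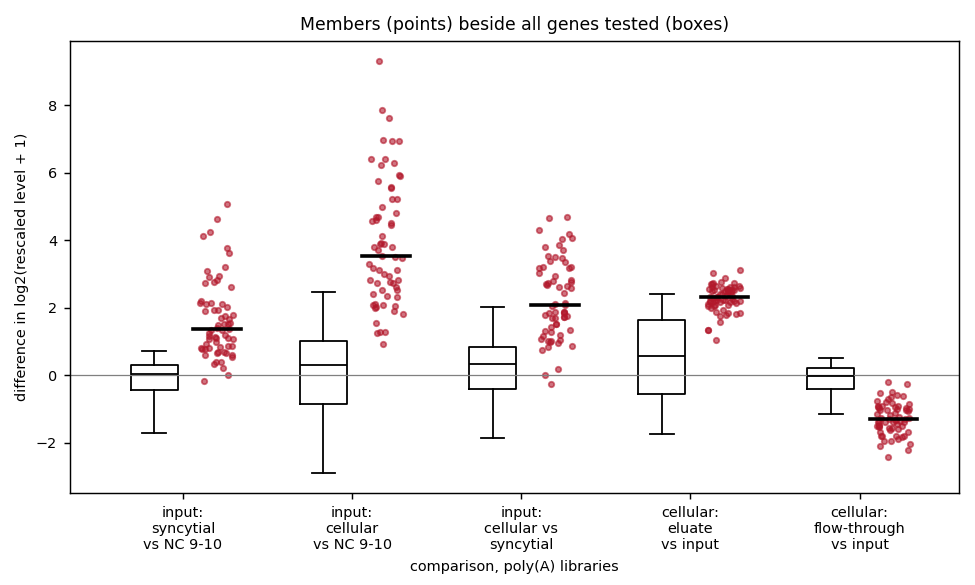
Differences in log2(level + 1) (vertical axis) for 5 comparisons between poly(A) libraries (horizontal axis), with members as points, their median as a black bar, and all 8744 genes as boxes (median, quartiles, whiskers from the 5th to the 95th percentile). The members' medians are 1.36, 3.52, 2.08, 2.32 and -1.31 from left to right, where all genes have 0.03, 0.31, 0.32, 0.57 and -0.03; on values as deposited the eluate against input median of the members is -0.24 and that of all genes -1.87.

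In the flow-through, limma called 2 members higher at the syncytial blastoderm than at NC 9-10, CG10035 (at 4.35 and 22.0 from 0 and 0.219) and CG43725 (at 9.68 and 17.3 from 0 and 0.171), beside 0.629% of all genes called higher and 5.96% lower. No member was called without either NC 9-10 flow-through, and 8 were called without the shallow 250 mM syncytial library. In that library 46 members were listed at 0, and 9 in the 50 mM one. CG15022 went against this, at 9.22 in the 250 mM and 0.252 in the 50 mM flow-through. In the NC 9-10 flow-throughs 46 and 43 members were listed at 0, so a fall from there could hardly have been called either. At the cellular blastoderm 44 members were called higher than at NC 9-10, beside 25.3% of all genes, with a median of 2.21 (0.23 over all genes). As deposited this median was 5.12 (-1.05), and with a pseudocount of 0.25 it was 3.70 (0.40). CG10035 was again the highest, at 252 and 525. CG30062 was listed at 0 in the NC 9-10 and cellular flow-throughs and was at 0.44 in the 50 mM syncytial one.

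The rRNA-depleted libraries gave a second reading of labelled RNA without poly(A) selection. Preparation names are the same in both sets of titles, so the RNA may come from the same embryos and the sets are not independent. The tables were normalised separately, so levels are set side by side only. The rule had already chosen the members as low at NC 9-10 and high at the syncytial blastoderm in poly(A) eluates of these names. A rise in the rRNA-depleted eluates was therefore favoured in advance, and its counts are a description. With the syncytial and cellular eluates as the late and the NC 7-9 and NC 9-10 eluates as the early pair, limma called 53 of the 63 members tested higher and none lower, beside 13.4% of all genes called higher and 4.89% lower. The median difference was 5.59, beside 0.10. Leaving out the NC 7-9 eluate lowered this count to 24. CG10035 was listed at 0 in both early eluates and was at 1394 and 6796 in the late ones (limma adjusted p = 0.00511). CG18132 was listed at 0 early and was at 230.4 and 83.8 late (limma adjusted p = 0.00259), and CG14017 was at 0, then 322 and 70.9 (limma adjusted p = 0.00259).

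In the rRNA-depleted input limma called no gene of the 8131 between late and early stages, with 871 genes and 35 members at an unadjusted p below 0.05. The median difference of the members was 2.41 beside 0.29 over all genes, and all 63 tested lay above 0. The members' median was 6.71 as deposited, 3.98 with a pseudocount of 0.25, 3.67 without the syncytial and 1.19 without the cellular input. The late pair joins a syncytial input with a member median of 1.54 and a cellular input with 11.9, so the pair itself is spread out. In the late eluates against the late inputs 22 of 63 members were called higher, beside 5.31% of all genes (1.8% lower), with a median of 3.69 beside 0.11. With the stage as a block 52 were called, beside 12.6% of all genes (3.75% lower). The count without the block was 40 without the syncytial eluate and 0 without the syncytial input, where the median was 2.23. On values as deposited no member was called and the median was -0.48, beside -4.46 over all genes.

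The direction of change from the syncytial to the cellular eluate was mostly the same in both sets at 250 mM. The poly(A) ratios use a syncytial eluate that chose the members, so this too is a description. Of 57 members with both ratios, 31 had ratios above 1 in both sets and 14 below 1 in both, while 8 were above 1 in the poly(A) set alone and 4 in the rRNA-depleted set alone. The 8 members listed at 0 in the rRNA-depleted syncytial eluate have no ratio there. Those above 0 in its cellular eluate had poly(A) ratios of 0.112 (CG42716), 0.692 (CG11345), 0.723 (CG13428), 0.742 (CG42544), 1.35 (CG15696) and 3.37 (CG30431). Spearman's rho between the ratios was 0.736 across these 57 genes, which share 4 libraries and are not replicates. CG14017 had ratios of 0.431 and 0.220, CG30161 0.579 and 0.347, and CG7884 13.3 and 6.01, with the poly(A) value first. CG34203, which was lower at the later stage in the poly(A) set (0.132), was higher in the rRNA-depleted one (2.09). The same held for CG11929 (0.218 and 1.71), CG10151 (0.491 and 1.84) and CG30287 (0.699 and 1.77).

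**Figure D5:**
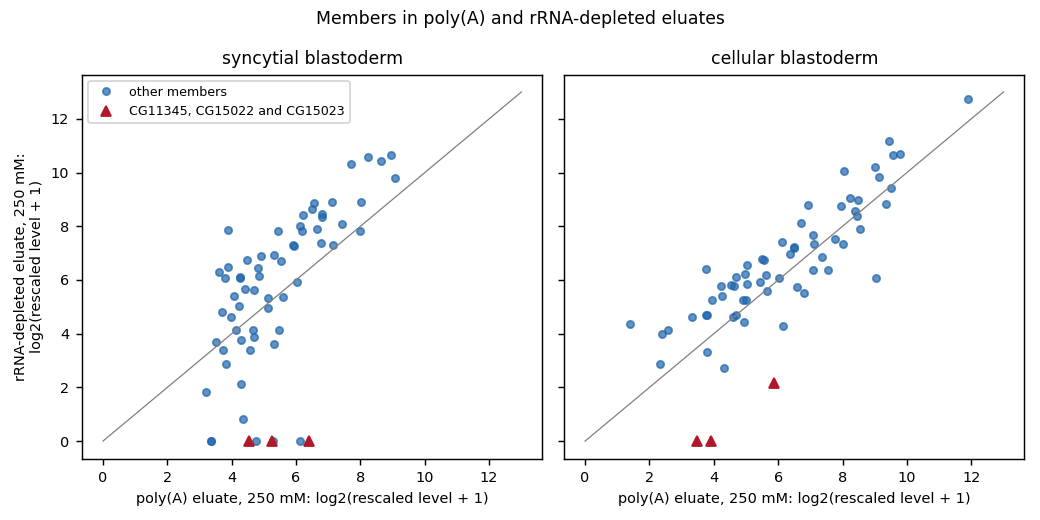
Level of each member in the rRNA-depleted eluate (vertical axis) against the poly(A) eluate (horizontal axis), both at 250 mM and as log2(level in ppm + 1), at the syncytial (left) and cellular blastoderm (right); the line marks equal values, and the tables were scaled separately. CG11345, CG15022 and CG15023 (triangles) are at 0 in the rRNA-depleted syncytial eluate, and the median ratio of rRNA-depleted to poly(A) levels is 1.83 and 1.58.

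A set of 3 neighbours was low in the rRNA-depleted eluates of both late stages. CG11345, CG15022 and CG15023 lie side by side on the minus strand of 3L between 4457177 and 4461504, within 4328 bp. In the 250 mM poly(A) syncytial eluate they were at 82.7, 22.4 and 36.7, and in the rRNA-depleted one all 3 were listed at 0. With the depth estimated for that library, equal ppm would have given 76.2, 23.7 and 30.0 reads. At the cellular blastoderm they were at 57.2, 14.2 and 10.2 in the poly(A) eluate and at 3.48, 0 and 0 in the rRNA-depleted one, where equal ppm would have given 631, 181 and 99.6 reads and the table's values amount to 36, 0 and 0. In the rRNA-depleted inputs CG11345 was at 2.21 at the syncytial and 0.277 at the cellular blastoderm, while the poly(A) inputs were at 2.96 and 2.65 and then at 12.2 and 13.4. The cause of the gap was not tested.

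Further members were listed at 0 in the rRNA-depleted syncytial eluate alone, namely CG13428, CG15696, CG30431, CG42544 and CG42716, where equal ppm would have given 6.3 to 32.8 reads. CG15696 is a homeobox gene and CG30431 encodes a C2H2 zinc finger protein. At the cellular blastoderm these 5 were at 47.0, 24.8, 37.0, 5.65 and 14.8. OtopLa (CG42492) was at 19.2 in the syncytial poly(A) eluate and at 0.746 without poly(A) selection, a ratio of 0.0389, and CG7884 at 39.2 and 11.2 and later at 522 and 67.0. On the other side CG18132 was at 13.9 and 230.4, a ratio of 16.6, and later at 12.5 and 83.8. CG30161 was at 207 and 1282, a ratio of 6.19.

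Several members are neighbours on the chromosome. Within 20 kb of another member lay 18 of the 65, in 6 pairs and 2 triplets. The tightest triplets were the 3 genes above and CG30287, CG33226 and CG30283, which follow each other on the minus strand of 2R from 21536894 to 21540573 and carry serine protease or serine protease homologue synonyms in RefSeq. Their syncytial eluates were at 33.8 and 17.7 for CG30287, 38.7 and 12.8 for CG33226 and 68.0 and 92.9 for CG30283. In the cellular eluates they were at 23.6 and 29.3, 17.7 and 16.1, and 89.6 and 129.9. CG30283 was the highest of the 3 in all 4 libraries. All 3 lie within Egfr, the epidermal growth factor receptor gene, which is on the opposite strand and had a mean syncytial eluate level of 333.

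Members of a pair did not always move together. On 3R CG12420 (10222698 to 10223745) and CG34107 (10224909 to 10225587), both on the plus strand, had cellular to syncytial eluate ratios of 6.03 and 1.41. On 3R CG8087 and CG31313, both on the minus strand between 14564323 and 14567429, had 1.20 and 1.28. CG42762 and CG43394, on opposite strands of 2L between 8143401 and 8158786, had 1.77 and 8.78. On 3L CG14111 and CG14107, on opposite strands between 13377957 and 13381346, had 0.929 and 1.10. The pairs CG15905 and CG11018 on 2R had 1.40 and 0.863, and CG42394 and CG14694 on 3R 3.42 and 1.74. In the inputs from syncytial to cellular blastoderm limma called CG12420 (4.18) and CG42394 (3.49) and not their neighbours CG34107 (1.01) and CG14694 (1.16). The difference between neighbours was not tested.

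For 22 members the annotation has another gene on the same stretch, and 14 of these have a partner with a higher syncytial eluate level. The library kit keeps strand, but how strand was used in counting is not given in the sources used here, so their values are uncertain. The clearest cases are CG11929, which overlaps Bsg25A on the opposite strand (mean syncytial eluate level 18.7 beside 6940.0), CG14111, which overlaps SNCF on the same strand (176 beside 3570.0), and CG32052, with the RefSeq synonym aSMase for an acid sphingomyelinase, which overlaps Ilp4 on the opposite strand (26.7 beside 1590.0). CG17786 lies wholly within twin, CG30062 within cnn and CG42762 within PAPLA1, each on the same strand. In the NC 9-10 inputs twin had a mean of 192 and cnn of 125, CG17786 was at 0.575 and 0.469, and CG30062 was listed at 0 in both. The mean syncytial eluate levels were 204 for twin, 210 for cnn and 293 for PAPLA1. The part of reads from twin, cnn and PAPLA1 in the members' levels was not tested.

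The counts above hold members of both kinds. Among the 43 members without an overlapping gene, limma called 38 higher in the cellular eluate against input (39.0% of all genes). It called 14 in the syncytial against NC 9-10 input (1.77%), 42 in the cellular against NC 9-10 input (27.6%) and 29 in the cellular against syncytial input (16.8%). In the rRNA-depleted eluates it called 32 of them late against early (13.4%) and 10 against input (5.31%).

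Some members belong to a known protein family. Pepck2 (CG10924, 2R, 18527430 to 18535749) was at 8.12 and 32.7 in the syncytial and 24.97 and 44.1 in the cellular eluates, and its input differed between these stages by 1.73 ± 0.58 (SE) on the log2 scale (limma adjusted p = 0.0421). Nepl4 (CG9505, 2L) went from 20.2 and 15.2 to 89.0 and 109.9 in the eluate and its input rose by 3.01 ± 0.43 (limma adjusted p = 0.000308). OtopLa (CG42492, X, 15 exons) went from 19.2 and 12.9 to 69.5 and 61.9, and its input rose by 2.75 ± 0.31 (limma adjusted p = 7.34e-05). CG2145, of the EndoU family of endoribonucleases, went from 43.1 and 55.3 to 257 and 359, and its input rose by 3.86 ± 0.56 (limma adjusted p = 0.000368). For the last 3, each cellular eluate lay above each syncytial one.

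Beside the members, a list of named genes gives the scale of the same comparisons. Most are patterning and cellularisation genes, and the list also holds sex-counting (sisA, sc), insulator (Elba1, Elba3) and cell cycle genes (Z600, trbl, grp). Of the 48 listed genes 45 were tested. Limma called 32 higher in the syncytial than the NC 9-10 input (median 3.88) and 41 higher and 2 lower by the cellular blastoderm (6.08). It called 29 higher in the cellular eluate than the input (2.35). The members' medians in these comparisons were 1.36, 3.52 and 2.32. Of the 25 CG genes of earlier onset, 21 were called higher in the syncytial than the NC 9-10 input (5.49), and of the 114 of later onset none was (0.20). From the syncytial to the cellular input 5 of the 25, 42 of the 65 members and 91 of the 114 were called higher, with medians of 1.84, 2.08 and 1.88. These sets were chosen by their eluate levels at these stages and share libraries with the members, so their order is a description. Of 23 maternal transcripts tested, limma called 1 higher and 13 lower in the cellular eluate than the input (median -1.10), and 1 higher and 12 lower in the cellular than the NC 9-10 input.

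Markers of particular cells changed over the same stages. Whole embryos were used, so fewer cells of a type and less RNA per cell cannot be told apart. The summed level of 6 pole cell genes, several of them maternal RNAs kept by the pole cells, was 2320 to 2860.0 in the NC 9-10 eluates and 147 to 205 in the cellular ones. For 6 genes of hemocytes, yolk and amnioserosa it was 12.2 to 36.3 in the syncytial and 122 to 458 in the cellular eluates. Of 8 genes listed for tissues of older embryos, 7 were in the table. Their sum was 4.45 to 11.5, then 35.1 to 136, with Cpr65Av at 0 throughout and Mhc at 0 in the syncytial eluates. The list includes the Hox gene Ubx, and the sum does not show which genes rose, so it is not a measure of older tissue. The 7 follicle cell genes summed to at most 2.90 in the syncytial and 5.73 in the cellular eluates, with Yp1, Yp2 and Cp36 at 0 in both. The part of these cell types, or of embryos further along than their label, in the members' levels was not tested.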

How the data were processed

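Per the submitters' processing notes, STAR, HTSeq and the dm6 build were used; the sources used here give neither the strand setting nor versions. The deposited tables hold RPKM values per gene with 1 added by the authors' processing, as the lowest value of each column shows. Here 1 was subtracted, each library was scaled to a sum of 1000000 (ppm), then by median of ratios, and a gene was kept if 2 or more libraries had it at 1 or above. Limma 3.58.1 (R 4.3.3, trend) was fitted to log2(level + 1), once per table, with a mean per stage and fraction, or, in the rRNA-depleted table, per fraction and pair of stages (early, late). The fit was tested on simulated data. Benjamini-Hochberg adjustment ran over all genes of a table. Annotation matched 16389 of 16407 genes.

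The members, the gene lists and the tests were chosen with earlier results of these data known. Genes named are the 10 members highest in the syncytial eluates, the 5 highest and lowest in 3 of the comparisons, those at the threshold and those within 20 kb of another; members with a known family, a large gap between the tables, an overlapping gene or an exemplary eluate ratio were added after their values were seen. Titles pair the fractions of a preparation, and deviations from group means of paired libraries correlated at 0.511 to 0.929. Sequences and promoter motifs were not analysed here.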

Additional observations from a re-analysis of the deposited data

How the results depend on the processing

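Alternatives were values as deposited (minus 1), scaling to 1000000 alone, a pseudocount of 0.25, no filter on low values, a block for the preparation, dose or stage, and leaving out each library. Counts of members called are given where they moved by more than 1.5 times; the cause was not tested. On values as deposited the count was 0 for the cellular eluate against input, beside 76 of all 8744 genes called higher. It was 50 for the syncytial against NC 9-10 input (343 of all genes), 22 for the cellular against syncytial input (802) and 11 for the syncytial against NC 9-10 flow-through (130). In the rRNA-depleted set it was 24 for the late eluate against early (174 of 8131 genes), 23 for the late input against early (151) and 0 for the late eluate against input (1). The medians of all genes were then shifted to -1.87, -0.29, -0.37, -1.06, 1.19, 0.11 and -4.46, and the members' medians turned negative for eluate against input (-0.24 cellular, -0.48 rRNA-depleted). With a pseudocount of 0.25 the syncytial against NC 9-10 input gave 35 (203 of all genes called higher), the flow-through 6 (86) and the rRNA-depleted eluate against input 0 (19). With no filter the first gave 13 (125 of 12572 genes) and the last 9 (379 of 13569). The replicate block gave 8 lower for the cellular flow-through against input (206 of all genes). It gave 52 higher for the rRNA-depleted eluate against input (1024 of all genes), and moved no other count by that much. No paired analysis was possible because the numbers or doses are not shared for comparisons with NC 9-10 or between late and early stages. A syncytial minimum of 20 left 39 members.

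Leaving out 1 library gave 44 to 52 (cellular eluate against input), 0 to 10 (flow-through against input), 1 to 6 (syncytial against NC 9-10 input), 56 to 58 and 31 to 33 (cellular input against NC 9-10 and syncytial), 0 to 8 and 34 to 49 (syncytial and cellular against NC 9-10 flow-through), and 24 to 61, 0 to 0 and 0 to 40 in the rRNA-depleted table, with a lone library assumed to vary like the other groups. In the cellular eluate against input as deposited, CG10151 was at -0.84, CG11929 at -0.35, CG15022 at -1.22, CG34203 at -0.80 and CG42716 at -1.40. In the cellular against syncytial input CG11929 was at -0.55 as deposited, -0.10 scaled to 1000000 and -0.05 to 0.39 without either cellular input. CG42819 was at -1.82, -0.16, -0.42 (pseudocount 0.25), -0.10 (without the 50 mM syncytial input) and -0.91 to 0.92 (without either cellular input), and CG34203 at -0.67 to 0.12 without either cellular input. Over all genes the split of calls in the cellular eluate against input was 3414 higher and 1517 lower, and 76 and 4368 as deposited. With scaling to 1000000 alone, it went from 2410 and 1866 to 1234 and 2425 for the cellular against NC 9-10 input, from 1468 and 1214 to 709 and 1762 for cellular against syncytial, and from 2214 and 2031 to 685 and 2683 for the cellular flow-through. Low levels near the value of 1 read limit the syncytial flow-throughs and the early eluates.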

Other observations

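In the rRNA-depleted inputs the members made 0.000567% of the library at NC 7-9, 0.00074% at NC 9-10, 0.0247% at the syncytial and 0.309% at the cellular blastoderm. In the matching flow-throughs the shares were 0.000413%, 0.000639%, 0.0042% and 0.084%. In the rRNA-depleted eluates they were 0.000528%, 0.0209%, 0.853% and 1.70%.

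A few members were detected at low levels before the syncytial blastoderm in every fraction of the poly(A) set. Eluates of these early stages were not compared with the other fractions, so whether the RNA of these members was labelled was not tested. CG17786, which lies within twin, was at 0.307 to 0.918 in all 9 libraries of NC 7-9 and NC 9-10, and CG10151 at 0.31 to 1.18. CG7900 was at 0.201 to 2.57 in the same libraries.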
